A study of Homo sapiens with 6 samples.

Results

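The 10 genes described here are the PRL phosphatases, the CNNM proteins that bind them, and a small group of genes for magnesium transport and its regulation, among 58243 gene identifiers counted in 6 libraries of newly made RNA. They were taken by symbol and matched to Ensembl identifiers: PTP4A1, PTP4A2 and PTP4A3, which encode PRL1, PRL2 and PRL3, CNNM1, CNNM2, CNNM3 and CNNM4, and ARL15, TRPM7 and MAGT1. All 10 were found. PTP4A3 is the gene that was introduced into the cells, so the results concern the other 9, called partners below.

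PRLs are small dual-specificity phosphatases that sit on membranes by a farnesyl group added to the cysteine of a C-terminal CAAX box. They bind the cystathionine-beta-synthase domains of CNNM proteins, membrane proteins that take part in the movement of magnesium across membranes, and this binding is known to alter CNNM function and the magnesium content of cells. ARL15 is a small GTPase known to bind CNNMs, TRPM7 is a channel for magnesium and other divalent cations that carries its own kinase domain, and MAGT1 is a subunit of one form of the oligosaccharyltransferase that has also been described as a magnesium transporter. Cellular magnesium is also known to feed back on the amounts of PRL1 and PRL2 proteins, which was not measured here.

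The cells were A375, a human melanoma cell line. The EV group was stably transfected with the empty pCEP4 plasmid and the PRL3 group with the same plasmid carrying HA-tagged PRL3, and both were kept under 100 µg/ml hygromycin. Each group had 3 libraries, B1, B2 and B3 for EV and B9, B10 and B11 for PRL3. All cells received 500 µM 4-thiouridine for 20 min, and the RNA that had taken it up was tagged with biotin and isolated (4sU-seq), which enriches RNA transcribed during the pulse. The counts are of exonic reads, and how much older mRNA was carried along was not tested. The sources used here do not say whether each group is 1 clone or a pool of transfected cells, nor that the libraries of a group came from separate cultures, so p-values measure only the spread between these libraries, which may be technical.

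The DNA just before the start site is shown for the 2 partners that fell in PRL3 libraries, PTP4A2 and ARL15. It is also shown for 2 partners whose fold change did not pass the test. These are PTP4A1, a relative of PTP4A2, and TRPM7, a magnesium gene that is no relative of ARL15. The windows hold the 250 bases upstream of a RefSeq start on GRCh38.p14, 5′ to 3′ on the gene's strand, and lie at chr1:31938369-31938618 (minus strand) for PTP4A2, chr6:63572230-63572479 (plus) for PTP4A1, chr5:54310574-54310823 (minus) for ARL15 and chr15:50686798-50687047 (minus) for TRPM7. Capitals mark matches on either strand to 5 short motifs, the E-box CACGTG, the cyclic AMP response element TGACGTCA, the CCAAT box CCAAT, the GC box GGGCGG and the TATA box TATAAA.
PTP4A2: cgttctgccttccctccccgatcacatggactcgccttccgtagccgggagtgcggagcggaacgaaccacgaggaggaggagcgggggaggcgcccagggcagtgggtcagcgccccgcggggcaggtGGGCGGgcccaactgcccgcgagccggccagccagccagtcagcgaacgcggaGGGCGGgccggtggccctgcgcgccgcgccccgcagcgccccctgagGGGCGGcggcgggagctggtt
PTP4A1: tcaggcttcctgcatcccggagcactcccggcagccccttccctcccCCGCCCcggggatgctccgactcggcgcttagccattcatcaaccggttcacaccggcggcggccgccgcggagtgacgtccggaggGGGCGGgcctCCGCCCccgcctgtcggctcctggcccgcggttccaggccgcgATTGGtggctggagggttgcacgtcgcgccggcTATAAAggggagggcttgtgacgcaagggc
ARL15: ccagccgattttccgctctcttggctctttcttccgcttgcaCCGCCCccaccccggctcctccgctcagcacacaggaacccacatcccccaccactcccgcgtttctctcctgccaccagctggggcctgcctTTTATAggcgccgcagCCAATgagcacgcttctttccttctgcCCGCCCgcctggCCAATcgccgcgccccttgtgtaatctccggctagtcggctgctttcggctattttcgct
TRPM7: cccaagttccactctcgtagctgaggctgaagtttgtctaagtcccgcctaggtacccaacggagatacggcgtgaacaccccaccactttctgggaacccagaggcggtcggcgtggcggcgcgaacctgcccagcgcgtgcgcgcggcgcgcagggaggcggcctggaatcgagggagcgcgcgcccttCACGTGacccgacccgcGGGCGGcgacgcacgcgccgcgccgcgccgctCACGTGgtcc

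The PTP4A2 window, the upstream one of its RefSeq starts, held 3 GC boxes and none of the other motifs, with 76.8% G and C. ARL15 had 2 CCAAT boxes, 2 GC boxes and 1 TATA box on the opposite strand, with 63.2% G and C. The PTP4A1 window, 1 of several RefSeq starts for this gene, had 3 GC boxes, 1 CCAAT box and 1 TATA box, with 72.4% G and C. TRPM7 had 2 E-boxes, at 59 and 10 bases before the start, and 1 GC box, with 70.8% G and C. Among all 35116 windows of this length, 42.6% held a GC box, 32.0% a CCAAT box, 10.7% a TATA box, 6.35% an E-box and 1.65% the cyclic AMP response element, and the median G and C content was 58.0%. Of the partners' other windows, CNNM1 held 1 E-box and CNNM4 the single cyclic AMP response element. These are matches of letters and say nothing of which factors were bound.

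Reads counted on genes numbered 47158709 to 57952035 per EV library and 36532207 to 56511290 per PRL3 library. Of the uniquely aligned reads, 28.7% to 41.1% lay outside annotated exons in EV and 62.8% to 69.1% in PRL3, and reads ambiguous between genes made up 4.46% to 5.01% and 1.67% to 2.53%. The part of these differences in the members' results was not tested. Of the melanoma markers, SOX10 had 9882 to 23575 reads and AXL, a marker of dedifferentiated melanoma, 11858 to 19170, while MLANA and TYR, genes of pigment cells, had at most 2. The markers of epithelial, blood and liver cells, EPCAM, KRT5, PTPRC, CD3E and ALB, had at most 21 reads in any library. The endothelial PECAM1 and VWF had at most 7 and 157, and the fibroblast genes DCN and COL1A1 at most 55 and 80. Of the remaining melanoma genes, MITF had 1004 to 2412 reads, S100B 982 to 2630, EGFR 720 to 1394, SOX9 60 to 289 and PMEL 26 to 61. Some of these differed between the groups. The log2 fold change was -0.85 for SOX10 (SE 0.18), -1.38 for S100B (SE 0.16), -2.08 for SOX9 (SE 0.31) and -0.40 for AXL (SE 0.14), which all passed, and 0.36 for MITF (SE 0.15), which did not. With library size alone SOX10 did not pass and AXL was 0.09, and AXL passed in 5 of 9 alternatives. The part of these differences in the members' results was not tested.

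PTP4A3 checked the labels. It had 132, 176 and 307 reads in the EV libraries and 21687, 38659 and 20584 in the PRL3 libraries, a log2 fold change of 6.80 (SE 0.25). Reads from the plasmid and from the gene's own locus are counted together. PTP4A3 was the least transcribed PRL gene in the EV line and the most transcribed in the PRL3 line. Per kb of annotated exon, it gave 3.46% ± 1.30 of the reads on the 3 PRL genes in EV libraries and 81.1% ± 2.68 in PRL3 libraries (SD, n = 3 each). PTP4A1 and PTP4A2 had near-equal shares in EV, 47.4% ± 4.24 and 49.1% ± 4.62, and 12.1% ± 1.73 and 6.83% ± 1.11 in PRL3 (SD, n = 3 each). The summed reads per kb of PTP4A3 were 4.36 ± 0.74 times those of PTP4A1 and PTP4A2 together in PRL3 libraries, against 0.0359 ± 0.0140 in EV libraries (SD, n = 3 each). The annotated transcripts of PTP4A3 share no run longer than 13 bases with those of PTP4A1 or PTP4A2, and PTP4A1 and PTP4A2 share no run longer than 24.

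**Figure D1:**
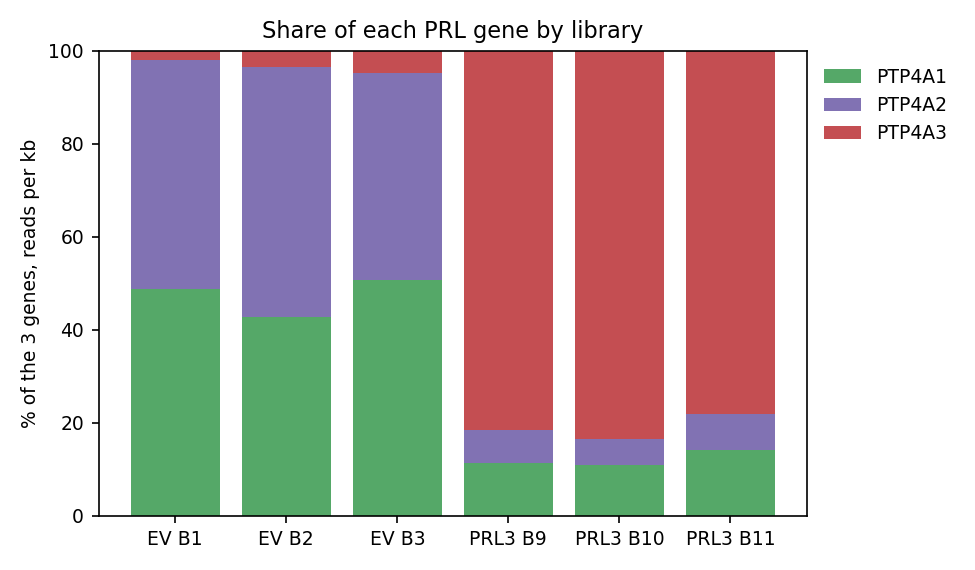
Stacked bars give, for each of the 6 libraries, the percent of reads per kb of exon on the 3 PRL genes that fell on PTP4A1, PTP4A2 and PTP4A3. PTP4A3 takes 2.09% to 4.69% in EV libraries and 78.2% to 83.5% in PRL3 libraries.

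The question for the partners was whether their transcription changed in cells that express PRL3. Of the 9, CNNM1 was too low to be tested, 2 were lower in PRL3 libraries (PTP4A2 and ARL15), none was higher, and 6 did not pass the threshold of an adjusted p of 0.05 (edgeR quasi-likelihood test, Benjamini-Hochberg over 23884 genes). Over all genes tested, 22.7% were called lower and 20.0% higher, and over the protein-coding genes tested 31.6% and 15.2%. The share of tested partners called lower, 2 of 8, was therefore near the background. The median log2 fold change of the 8 tested partners was -0.25, against 0.11 over all genes tested and -0.15 over the protein-coding ones. No partner was higher at an unadjusted p of 0.05 in edgeR, and none passed as higher with DESeq2 or limma-voom. Counts per library cannot separate fewer transcribing cells from less RNA per cell.

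**Figure D2:**
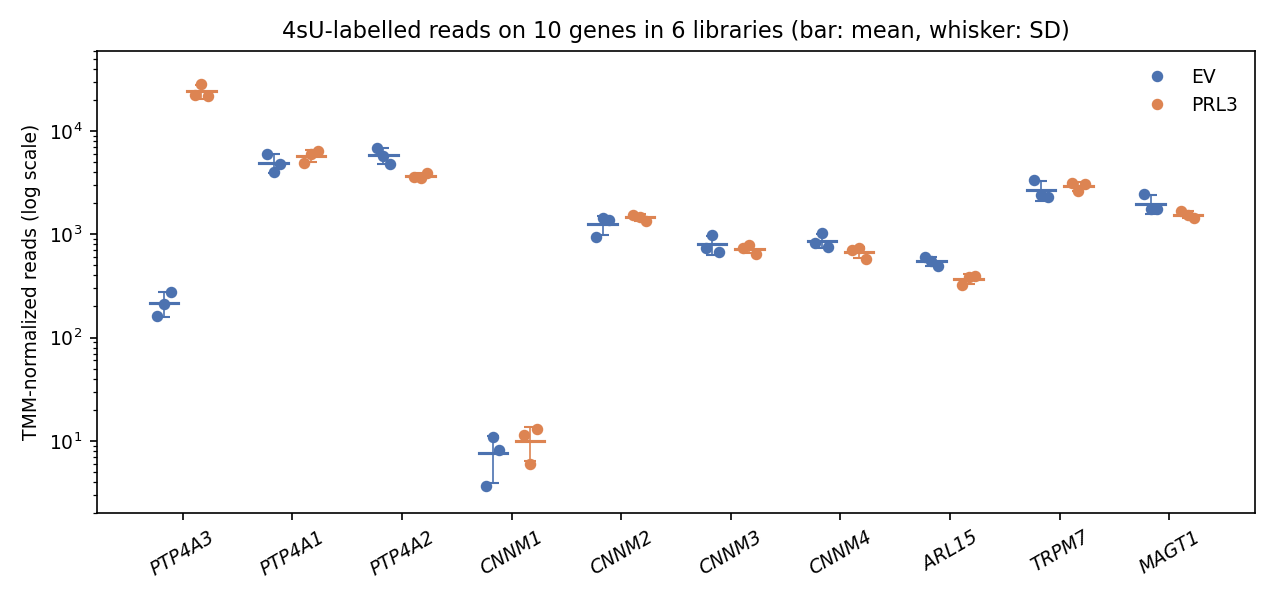
TMM-normalized reads (log axis) of the 10 genes, with 1 point per library, a bar at the group mean and a whisker of 1 SD, EV in blue and PRL3 in orange. PTP4A3 stands far apart between the groups, and of the partners PTP4A2, CNNM4, ARL15 and MAGT1 have PRL3 libraries that all lie below all EV libraries. Among all genes tested, 26.6% have that pattern.

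PTP4A2, which encodes PRL2, fell in PRL3 libraries. Its normalized read counts (counts scaled to a common library size by TMM) were 6848, 5768 and 4815 in the EV libraries and 3569.6, 3494 and 3956 in the PRL3 libraries. Each PRL3 library lay below each EV library. The means were 5810.2 ± 1017 and 3673 ± 247 (SD, n = 3 each), a log2 fold change of -0.66 (SE 0.16, 95% interval -1.01 to -0.32, edgeR quasi-likelihood adjusted p = 0.00484). The gene lies on chromosome 1 of GRCh38 from 31906421 to 31944856, on the minus strand. Its fold change was negative under all 9 alternative settings of scaling, tool, filter and gene set, and passed the test in 8 of them; with library size alone it was -0.16 (adjusted p = 0.392). It also passed with each of the 6 libraries left out in turn.

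PTP4A1, which encodes PRL1, the closest relative of PRL2, did not pass. It had normalized read counts of 5999, 4032 and 4838 in EV and 4943, 6017 and 6360.0 in PRL3, and the groups overlapped. The log2 fold change was 0.22 (SE 0.17, 95% interval -0.15 to 0.59, edgeR quasi-likelihood adjusted p = 0.33). With library size alone it was 0.71 and passed, and with all uniquely aligned reads as the library size it was -0.26 and did not pass, so the data give no direction for this gene.

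The balance between both endogenous PRL genes does not depend on the scaling between libraries, since it is taken within a library. PTP4A2 over PTP4A1 gave log2 ratios of reads of 0.19, 0.52 and -0.01 in the EV libraries and -0.47, -0.78 and -0.69 in the PRL3 libraries. The groups did not overlap, and their means of 0.23 ± 0.26 and -0.65 ± 0.16 (SD, n = 3 each) differed by -0.88. The exact permutation test gave p = 0.1, two-sided, which is the smallest that 3 libraries against 3 allow. Adjusted over the 7 ratios compared, it was 0.233. How many other gene pairs would separate the groups was not tested. As a share per kb, PTP4A1 made up 49.1% ± 4.57 of the PTP4A1 and PTP4A2 reads in EV and 63.9% ± 2.58 in PRL3 (SD, n = 3 each, exact permutation p = 0.1).

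The 4 CNNM genes differed widely in level, and none of the 3 tested passed. CNNM1, known mainly from brain and testis, had 3, 9 and 9 reads in EV and 11, 8 and 12 in PRL3, under the low-count filter. CNNM2, the member in which mutations cause a loss of magnesium in the kidney, had normalized read counts of 949, 1423 and 1383 in EV and 1552, 1475 and 1346 in PRL3. The groups overlapped, and the log2 fold change was 0.22 (SE 0.18, edgeR quasi-likelihood adjusted p = 0.36). CNNM3, a known partner of PRL2, had 732, 982 and 677 in EV and 734, 779.8 and 646 in PRL3, with overlapping groups and a log2 fold change of -0.15 (SE 0.19, edgeR quasi-likelihood adjusted p = 0.578).

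CNNM4, which is known for its role in magnesium uptake across the gut wall and in teeth and retina, was the CNNM gene whose groups did not overlap. Its normalized read counts were 826, 1024 and 758 in EV and 710.4, 739 and 581 in PRL3, a log2 fold change of -0.36 (SE 0.19, 95% interval -0.76 to 0.04, edgeR quasi-likelihood adjusted p = 0.14). Among all genes tested, 26.6% had PRL3 libraries that lay below all EV libraries and 29.7% had them above. CNNM4 and CNNM3 are neighbours on chromosome 2, on the same strand and 4370 bases apart. The longest run that their transcripts share is 61 bases, shorter than the reads that the study describes. Whether reads were left uncounted between them was not tested. Within a library, CNNM4 over CNNM3 gave log2 ratios of 0.17, 0.06 and 0.16 in EV and -0.05, -0.08 and -0.15 in PRL3. The difference of -0.23, with an SD over libraries of 0.06 and 0.05 (n = 3 each), had the smallest exact permutation p possible, 0.1, and 0.233 adjusted over the 7 ratios. CNNM2 over CNNM3 differed by 0.37 and CNNM1 over CNNM3 by 0.55, and in both the libraries of the groups overlapped (exact permutation p = 0.2 and 0.4).

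ARL15, the small GTPase, fell in PRL3 libraries in the main comparison, but by a call that several settings removed. Its normalized read counts were 598, 555 and 495 in EV and 321, 388 and 397 in PRL3, and the groups did not overlap. The means were 549 ± 51.9 and 369 ± 41.2 (SD, n = 3 each), a log2 fold change of -0.57 (SE 0.20, 95% interval -1.01 to -0.14, edgeR quasi-likelihood adjusted p = 0.0338). The change was negative under all 9 alternatives but passed in 5 of them. It passed in 1 of the 6 fits that left out a library, the one without EV replicate B3, and the fold change ranged from -0.65 to -0.48 over the 6. Of the members it has the longest span, 426.6 kb of chromosome 5 from 53883942 to 54310582, with 3.79 kb of annotated exon. Against CNNM3 within a library, ARL15 was lower by 0.44 on the log2 scale, with overlapping libraries (exact permutation p = 0.2).

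TRPM7 and MAGT1, the channel kinase and the oligosaccharyltransferase subunit, did not pass singly. TRPM7 had normalized read counts of 3343, 2409.9 and 2295 in EV and 3142, 2601 and 3087 in PRL3, with overlapping groups and a log2 fold change of 0.13 (SE 0.17, edgeR quasi-likelihood adjusted p = 0.568). MAGT1 had 2443, 1742 and 1758 in EV and 1692, 1523 and 1446 in PRL3, without overlap and with a log2 fold change of -0.35 (SE 0.17, 95% interval -0.72 to 0.02, edgeR quasi-likelihood adjusted p = 0.12). Their ratio within a library did not pass after adjustment, although the groups did not overlap. The log2 ratio of TRPM7 over MAGT1 was 0.45, 0.47 and 0.38 in EV libraries and 0.89, 0.77 and 1.09 in PRL3 libraries, a difference of 0.48 with no overlap (exact permutation p = 0.1, adjusted over the 7 ratios 0.233). TRPM7 over CNNM3 differed by 0.28, with overlapping libraries (exact permutation p = 0.5), and by 0.0546 without EV B2 and 0.50 without EV B1.

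**Figure D3:**
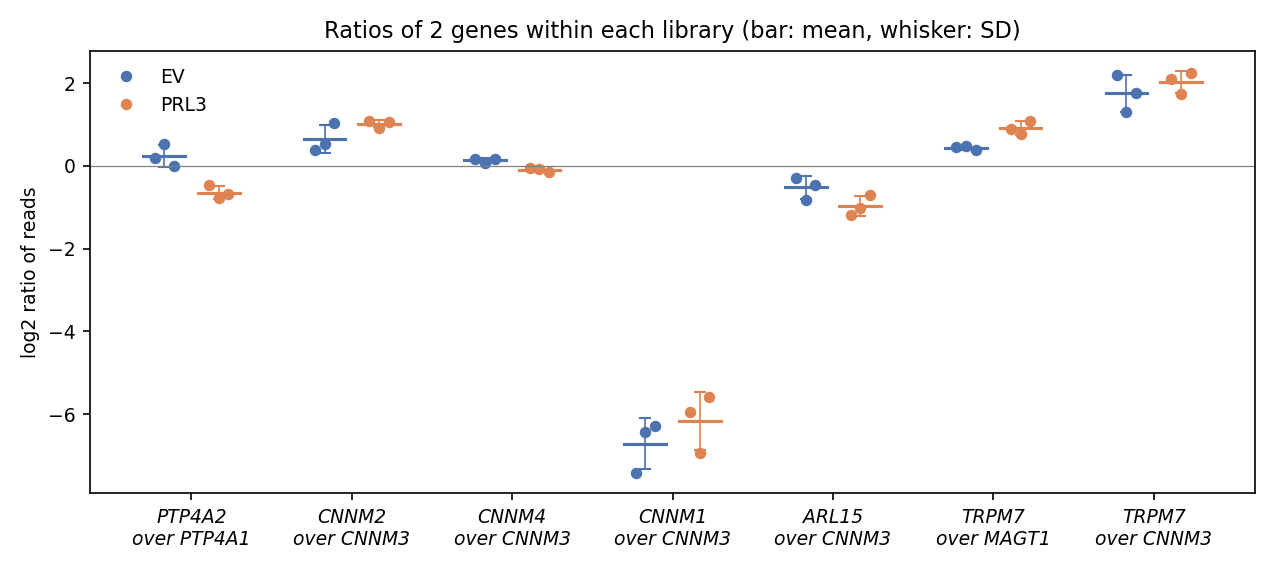
Log2 ratios of the reads of 2 genes within each library, with 1 point per library, a bar at the mean and a whisker of 1 SD, EV in blue and PRL3 in orange. The groups do not overlap for PTP4A2 over PTP4A1, CNNM4 over CNNM3 and TRPM7 over MAGT1, and overlap for the other 4 ratios. How many other gene pairs separate in this way was not tested. Of single genes tested, 26.6% had all PRL3 libraries below all EV libraries and 29.7% had them above.

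Scaling moved all 8 partners together. TMM factors were 0.816 to 0.894 for EV and 1.12 to 1.25 for PRL3 libraries, and the median log2 fold change of all genes tested was 0.11 after TMM, -0.36 when every uniquely aligned read counted towards library size, 0.29 after upper-quartile scaling and 0.60 when library size alone was used. The number of partners that passed was 0 lower and 3 higher (PTP4A1, CNNM2 and TRPM7) with library size alone, and 5 lower (PTP4A2, CNNM3, CNNM4, ARL15 and MAGT1) and 0 higher with all uniquely aligned reads. The calls over all 23884 genes tested moved in the same way. They were 3078 lower and 9514 higher with library size alone, and 8473 lower and 1952 higher with all uniquely aligned reads. PTP4A2 and ARL15 had a negative log2 fold change under all of these scalings, and the other 6 changed sign under at least 1 of them. In each of these scalings PTP4A2, ARL15, CNNM4 and MAGT1 stood lower than PTP4A1, CNNM2 and TRPM7. Scaling shifts all genes nearly alike, so this order could hardly change and is no separate result.

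**Figure D4:**
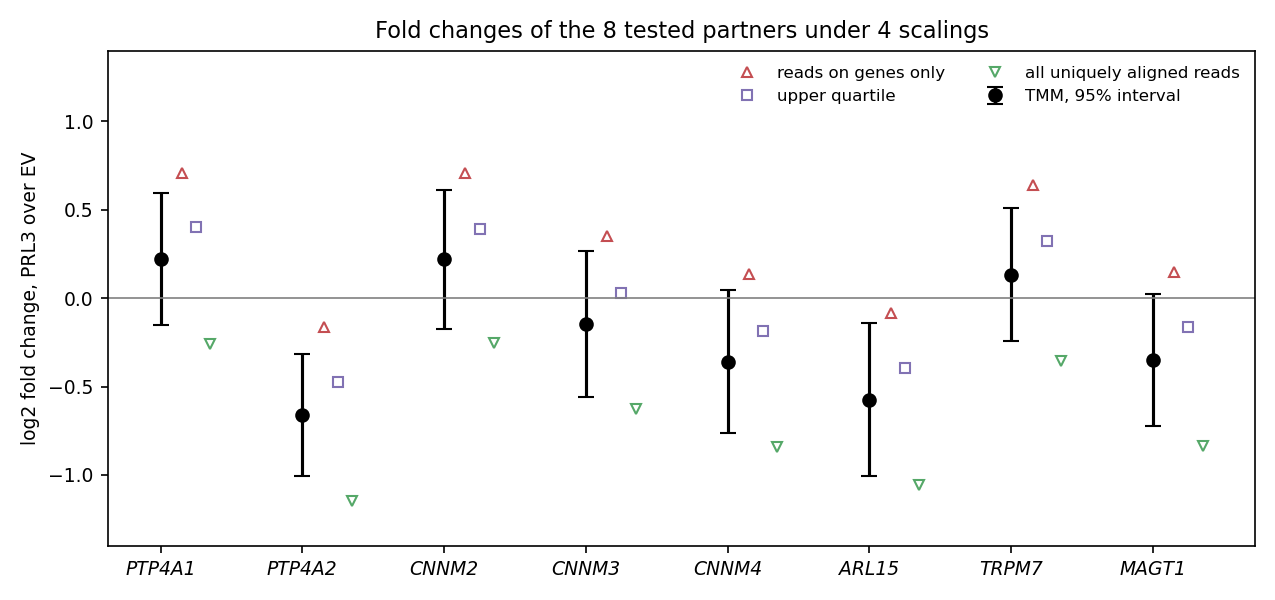
Log2 fold changes, PRL3 over EV, of the 8 tested partners with TMM (filled circles with 95% intervals) and with 3 other library scalings (open symbols, without intervals). All genes shift together with the scaling, from 0.71 to -0.26 for PTP4A1 and from -0.16 to -1.15 for PTP4A2.

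Levels per length put PTP4A1 and PTP4A2 first in EV libraries and all 3 PRL genes first in PRL3 libraries. In EV libraries, the level in RPKM (reads per kb of exon, with the reads on genes as the library size) was 15.4 ± 2.13 for PTP4A2. PTP4A1, at 11.8 to 17.7, was not separated from it. Then came 5.20 ± 0.94 for MAGT1, 3.86 ± 0.73 for TRPM7, 3.05 ± 0.38 for CNNM4, 2.58 ± 0.14 for ARL15, 2.41 ± 0.41 for CNNM3, 1.38 ± 0.32 for CNNM2, 1.06 ± 0.34 for PTP4A3 and 0.022 ± 0.01 for CNNM1 (SD, n = 3 each). Neighbours in this order overlapped between libraries for MAGT1 and TRPM7, TRPM7 and CNNM4, ARL15 and CNNM3, and CNNM2 and PTP4A3. Within a library, MAGT1 was above TRPM7 and CNNM2 above PTP4A3 in 3 of 3. TRPM7 was above CNNM4 and ARL15 above CNNM3 in 2 of 3. In PRL3 libraries PTP4A3 came first with 165.6 ± 17.8, then PTP4A1 with 24.5 ± 2.46 and PTP4A2 with 13.8 ± 1.28, and each was separated from the next in all libraries (SD, n = 3 each). TRPM7 (6.01 ± 0.91) and MAGT1 (5.77 ± 0.73) followed and were not separated. CNNM4 (3.35 ± 0.43) and CNNM3 (3.08 ± 0.28) were not separated either, nor were ARL15 (2.44 ± 0.19) and CNNM2 (2.25 ± 0.24). Within a PRL3 library, CNNM4 was above CNNM3 in 3 of 3, and TRPM7 was above MAGT1 and ARL15 above CNNM2 in 2 of 3. CNNM1 was last in both groups.

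Of 15 other genes for magnesium transport, 14 were tested, 2 were lower, 2 were higher and 10 did not pass, where 31.6% of protein-coding genes tested were lower and 15.2% higher, with a median log2 fold change of -0.02. NIPA2, a magnesium transporter of endosomes and the cell surface, had a log2 fold change of -0.57 (SE 0.16), and TUSC3, the relative that takes the place of MAGT1 in the oligosaccharyltransferase, -0.56 (SE 0.17). NIPAL1, a NIPA relative, had 0.68 (SE 0.23), and CLDN16, a tight-junction protein of the kidney, had 3, 3 and 4 reads in EV and 24, 20 and 29 in PRL3. With so few EV reads, CLDN16 met the low-count filter only through its PRL3 libraries and could be called only as higher. TUSC3 did not pass with upper-quartile scaling (adjusted p = 0.0717), neither NIPAL1 (adjusted p = 0.475) nor CLDN16 (adjusted p = 0.0619, passing in 5 of 8 alternatives) passed with all uniquely aligned reads, and neither NIPA2 nor TUSC3 passed with library size alone. Without PRL3 replicate B9 none of the 4 passed. TUSC3 also did not pass without EV B2, NIPAL1 without EV B2, PRL3 B10 or PRL3 B11, and CLDN16 without PRL3 B10 or PRL3 B11. SLC41A1, SLC41A2, SLC41A3 and MRS2, the transporters of the cell membrane and the mitochondrion, did not pass in the main comparison, with log2 fold changes from -0.21 to 0.36. MRS2 passed as higher in 3 of 9 alternatives. SLC41A1 passed as higher with library size alone, and SLC41A1 and SLC41A3 passed as lower with all uniquely aligned reads. CLDN19, the claudin that pairs with CLDN16, had 1 read in all and was not tested.

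Among 7 other TRPM channels, 5 were tested and 2 were lower, where 31.6% of protein-coding genes tested were called lower and 15.2% higher. The median log2 fold change of the tested channels was -0.42, against -0.15 over the protein-coding genes tested. TRPM2, a calcium channel opened by ADP-ribose, had normalized read counts of 638 ± 30.6 in EV and 289 in PRL3 and a log2 fold change of -1.14 (SE 0.23), and it passed under all 9 alternatives. TRPM4, a sodium channel gated by calcium, had -0.76 (SE 0.19) and passed in 8. TRPM6, the channel closest to TRPM7, had 0.10 and did not pass, and TRPM1, the melanocyte member, had at most 8 reads. TRPM3 went the other way, with 0.45 (SE 0.19, edgeR quasi-likelihood adjusted p = 0.0777). It did not pass in the main comparison but passed as higher in 5 of 9 alternatives. Its PRL3 libraries all lay above all EV libraries, as in 29.7% of all genes tested. TRPM8 had -0.42 (SE 0.35) and did not pass.

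Of 5 enzymes that attach and trim the lipid anchor of PRL proteins, 3 were lower and none was higher, where 31.6% of protein-coding genes tested were lower. No test compared the 5 genes with each other. FNTA and FNTB, the subunits of the farnesyltransferase that adds the lipid, had log2 fold changes of 0.39 (SE 0.18) and 0.27 (SE 0.18) and did not pass. The 3 that passed act after the lipid is added. RCE1 and ZMPSTE24, the proteases that cut off the last residues of a CAAX box, had -0.50 (SE 0.18) and -0.83 (SE 0.18), and ICMT, the methyltransferase that caps the exposed cysteine, had -1.12 (SE 0.14, edgeR quasi-likelihood adjusted p = 4.91e-05). ICMT had 6276, 5664 and 7319 reads in EV and 3157, 4554 and 2898 in PRL3. It passed under all 9 alternatives, ZMPSTE24 in 8 and RCE1 in 6. RCE1 did not pass without EV B2, PRL3 B9 or PRL3 B11, and FNTA and FNTB passed as higher with library size alone and with protein-coding genes only, and FNTA also with upper-quartile scaling and without EV B1.

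The oligosaccharyltransferase, the complex of the endoplasmic reticulum that adds N-linked glycans and to which MAGT1 belongs, had the most members that changed. Of 11 other genes listed for it, TUSC3 among them again, all were tested, 10 were lower and 1 was higher, with a median log2 fold change of -0.95, against 31.6% lower and 15.2% higher among the protein-coding genes. DAD1 had the lowest value, -2.42 (SE 0.16), followed by OST4 with -1.65 (SE 0.15), RPN1 with -1.55 (SE 0.15) and RPN2 with -1.32 (SE 0.15). The catalytic subunits STT3A and STT3B had -0.68 (SE 0.15) and -0.72 (SE 0.20). KRTCAP2, a subunit of the STT3A form, rose, with 1.00 (SE 0.20). With library size alone 6 of the 10 stayed lower, and KRTCAP2 stayed higher under all 9 alternatives. TUSC3, STT3B and TMEM258 did not pass without PRL3 replicate B9. MAGT1, with -0.35, had a smaller change than each of the 10.

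**Figure D5:**
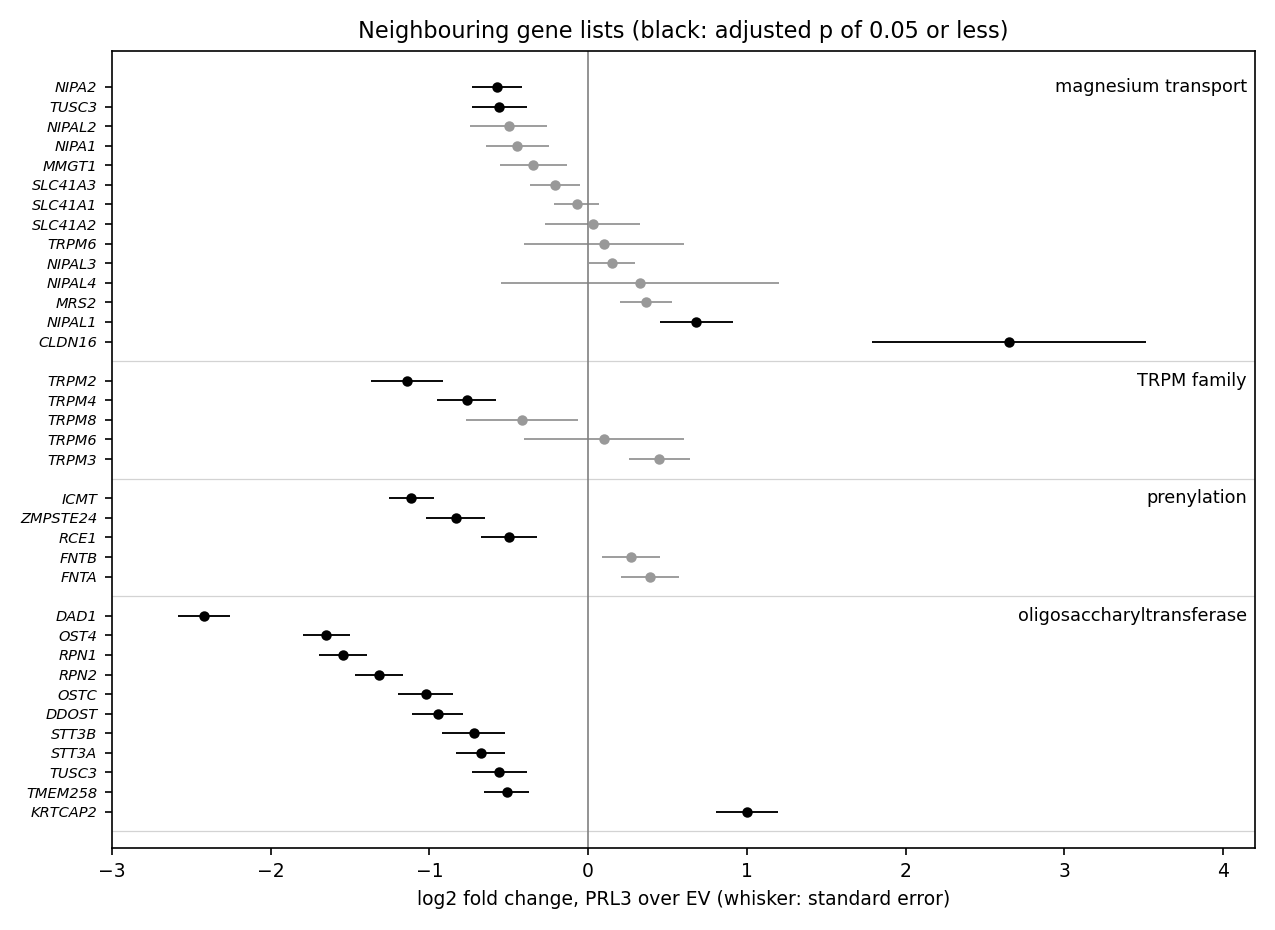
Log2 fold changes, PRL3 over EV, with standard errors for the tested genes of 4 lists of functional neighbours, magnesium transport, TRPM channels, prenylation enzymes and oligosaccharyltransferase subunits. Black points passed an adjusted p of 0.05, which 10 oligosaccharyltransferase genes did below 0 and KRTCAP2 did above 0.

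Other annotated genes lie within the members' spans. ENSG00000266680, a long noncoding gene that shares bases with PTP4A1 on the other strand, NT5C2 at the end of CNNM2 and ANKRD23 across CNNM3, both on the other strand, had log2 fold changes of 0.26, 0.13 and 0.32 and did not pass. MIR3127 inside CNNM4 had 0 to 21 reads and RN7SL801P inside ARL15 had 0 to 24, and neither passed. ENSG00000279638 inside ARL15 had at most 11 reads, and ENSG00000244998, across the start of PTP4A3 on the other strand, had at most 30 and did not pass. On the same strand, ENSG00000269967, a noncoding gene with an exon in an intron of PTP4A2, had more reads in PRL3 libraries. Its reads, and those of the pseudogene PTP4A1P3, are given with the results flagged for a closer look.

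The 9 annotated pseudogenes of PTP4A1 and PTP4A2 were low. PTP4A2P1 had 53, 23 and 22 reads in EV and 14, 26 and 4 in PRL3, with a log2 fold change of -1.53 (SE 0.76, edgeR quasi-likelihood adjusted p = 0.123). PTP4A2P2 had at most 15 reads and was not tested. Each shares a run with PTP4A2, of 86 and 71 bases, also shorter than the reads that the study describes. Whether some of their reads belong to the parent gene was not tested. The other pseudogenes, apart from PTP4A1P3, had at most 6 reads.

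By normalized profile over the 6 libraries, the protein-coding genes nearest to PTP4A2 were KDM1A, GMPS and CCNI, at Euclidean distances of mean-centred log2 values of 0.10, 0.114 and 0.140. Those nearest to PTP4A1 were ZCCHC7, ERI1 and ZFAND1, at 0.0742, 0.0757 and 0.0897. The comparison covered 14434 genes and shared the libraries of all tests above.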

How the data were processed

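Per the labels and the methods of the study, reads were checked with FastQC 0.11.3 and aligned to GRCh38 with STAR 2.5.1b, and htseq-count 0.6.1, set to the reverse strand, gave counts per gene of Ensembl annotation. The deposited values are these raw counts by the authors, whole numbers without normalization, with the reads left uncounted listed beside them. Symbols and coordinates came from GENCODE 44, a later release on the same build (57532 of 58243 identifiers matched), and promoter sequences from RefSeq. Lengths are those of merged GENCODE exons.

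Counts of both groups went into edgeR 4.0.16 under R 4.3.3 (TMM, filterByExpr, quasi-likelihood test, Benjamini-Hochberg adjustment over 23884 genes, threshold 0.05). Single values were also compared by two-sided exact permutation tests, and ratios used counts with 0.5 added. Alternatives were RLE, upper-quartile, library-size and all-aligned-read scaling, DESeq2 1.42.0, limma-voom 3.58.1, 2 filters, protein-coding genes only, an adjusted p of 0.01 and leaving out each library. The members and lists were chosen with earlier results of these data known. Named were the members, up to 4 called genes a list with any that a small count rests on, other genes or pseudogenes with 10 or more reads, and the 3 nearest profiles. Some list genes named without passing, and PTP4A1P3's host CDK14, were chosen after their values were seen. 1 gene of the overlap list is not reported here. On simulated data with 200 of 22755 genes changed 2-fold, 111 were recovered (55.5%) and 8 of 22555 unchanged genes were called. Changes of 2-fold can therefore be missed. In the data 22.7% of genes tested were called lower and 20.0% higher, so the share recovered does not carry over to the comparison. No 2 libraries agreed within sampling noise: the lowest mean chi-square over genes was 24.8.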

Additional observations from a re-analysis of the deposited data

Results flagged for a closer look

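Reads on 2 of the annotated noncoding features that the comparisons of the members do not use were higher in PRL3 libraries than in the EV controls. Over all genes tested, 20.0% were called higher and 29.7% had PRL3 libraries all above all EV libraries, so a rise was common. The first, ENSG00000269967, is a long noncoding gene with an exon of 485 bases in an intron of PTP4A2, 1699 bases from the nearest PTP4A2 exon, and another exon outside that gene. It had 15, 6 and 20 reads in EV and 45, 67 and 41 in PRL3, means of 14.6 and 46.7 normalized counts and a log2 fold change of 1.67 (SE 0.61, edgeR quasi-likelihood adjusted p = 0.0401). With 6 reads in EV B2, the gene needed its PRL3 libraries to meet the low-count filter, which the adjusted p does not allow for. Against the PTP4A2 count it was 0.257% ± 0.127 in EV and 1.28% ± 0.16 in PRL3 (SD, n = 3 each, exact permutation p = 0.1).

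The second is PTP4A1P3, a pseudogene of PTP4A1 that lies in an intron of CDK14 on the same strand, 4749 bases from the nearest CDK14 exon, and shares no run longer than 16 bases with PTP4A1 transcripts. It had 1, 2 and 7 reads in EV and 29, 50 and 30 in PRL3, means of 3.33 and 33.1 normalized counts. The log2 fold change was 3.21 (SE 0.85, edgeR quasi-likelihood adjusted p = 0.00836). With few EV reads, the pseudogene met the low-count filter only through its PRL3 libraries. It could therefore be called only as higher, which the adjusted p does not allow for. Its host CDK14 had a log2 fold change of 0.11 and did not pass (edgeR quasi-likelihood adjusted p = 0.56). The share of uniquely aligned reads outside exons was also higher in PRL3 libraries (62.8% to 69.1% against 28.7% to 41.1%), and its part in these 2 results was not tested. With libraries left out in turn, ENSG00000269967 did not pass without EV B2 or any 1 of the PRL3 libraries (log2 fold change 1.37 to 1.86 over the 6 fits), nor with all uniquely aligned reads as the library size (1.21, adjusted p = 0.133), and PTP4A1P3 without PRL3 B10 (2.85 to 4.09). The percentages of the PTP4A2 count were computed after the values had been seen.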

How the results depend on the processing

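The number of partners lower in PRL3, 2 in the main comparison, was 1 with upper-quartile scaling, without a low-count filter, with protein-coding genes only and at an adjusted p of 0.01, 0 with library size alone, 5 with all uniquely aligned reads as the library size, and 1 to 2 with each library left out. The number higher, 0, was 3 with library size alone. In each case with 1, the gene was PTP4A2. Calls over all 23884 genes tested moved as well, from 5426 lower and 4783 higher in the main comparison. They were 4475 and 6353 with upper-quartile scaling, 3078 and 9514 with library size alone, and 8473 and 1952 with all uniquely aligned reads. CNNM3 changed sign to 0.0306 with upper-quartile scaling, 0.0362 with protein-coding genes only, 0.35 with library size alone and 0.0465 without EV replicate B2. With library size alone CNNM4 became 0.14 and MAGT1 0.15, and with all uniquely aligned reads PTP4A1 became -0.26, CNNM2 -0.26 and TRPM7 -0.35. ARL15 lost its call with adjusted p values of 0.124 (upper-quartile), 0.757 (library size alone), 0.0751 (no filter) and 0.0891 (protein-coding genes), and of 0.0638 to 0.144 without each of EV B1, EV B2, PRL3 B9, PRL3 B10 and PRL3 B11. Scaling shifts all genes of a library together; for the other settings the cause was not tested. For the magnesium list, counts ran from 0 to 7 lower and 0 to 5 higher over all settings, for the TRPM list from 1 to 3 and 0 to 1, for the prenylation list from 1 to 3 and 0 to 2, and for the oligosaccharyltransferase list the lower count was 6 at least. No within-library ratio changed its sign. Leaving out a library moved CNNM1 over CNNM3 between 0.19 (EV B1) and 0.94 (PRL3 B10) and CNNM2 over CNNM3 between 0.24 (EV B1) and 0.56 (EV B3), and adding 10 reads made the former 0.18. Also, without length correction PTP4A1 and PTP4A2 made up 17.1% and 10.97% of PRL reads in PRL3 libraries. No paired analysis was possible because EV and PRL3 have no replicate number in common. With 36532207 or more reads per library only CNNM1 was too low to test.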
